A study of Homo sapiens with 4 samples.

Results

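The genes described here are the IL-17 receptors IL17RA, IL17RB, IL17RC, IL17RD and IL17RE, the ligands IL17B and IL17D, and TRAF3IP2, which encodes the adaptor ACT1. They were taken by gene name from 4 RNA-seq libraries of HGC-27 cells, an established line of undifferentiated human gastric cancer (GC), and all 8 names had at least 1 count among the 31907 names of the joined libraries. In 2 libraries the cells had been given PBS, and in the other 2 they had been given recombinant IL-17B (rIL-17B) at 200 ng/ml, with RNA taken 48 h later in every case. No other treatment or genetic change is given for either group, and the labels do not say whether replicates came from separate cultures, so p-values measure only the spread between these libraries, which may be technical. A gene missing from a library was read as 0 counts, and levels are in CPM, the count scaled by the plain total of its own library.

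IL-17 cytokines are secreted dimers that act on pairs of receptor chains. IL17RA is the shared chain: it joins IL17RC to receive IL-17A and IL-17F, IL17RB to receive IL-17E (IL-25), and IL17RE to receive IL-17C, while IL-17B binds IL17RB. The receptors and ACT1 share an intracellular SEFIR domain, through which ACT1 is recruited, and ACT1 in turn recruits TRAF6 and other TRAF proteins to the NF-κB and MAP kinase pathways. In epithelial tissues the pathway is best known for inducing chemokines, antimicrobial proteins and mucins.

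The libraries held between 12888029 and 17555879 counts, so that 3 counts, taken as the limit of detection, corresponded to 0.171 to 0.233 CPM. rIL-17B replicate 1 stood apart from the other libraries. Relative to its degrees of freedom, the chi-square between its counts and those of rIL-17B replicate 2 was 140, against 3.66 between the PBS libraries and 6.55 or 8.71 between rIL-17B replicate 2 and a PBS library. The labelled cell type was compared with marker lists. Of 7 gastric markers only 2 or 3 reached 3 counts per library, their summed level was 2.39 to 4.42 CPM, and TFF1 and PGC were at 0 in all 4 libraries. The 8 epithelial markers summed to 2219 CPM in rIL-17B replicate 1 and to between 989 and 1245 CPM in the other 3 libraries. This sum was led by the keratins KRT8, KRT18 and KRT7, and not every marker followed it. KRT19 had 1 count in rIL-17B replicate 1 against 43 to 58 elsewhere, and CLDN4 had 97 to 108 counts per library. CDH1 had 7 to 11 counts per library and ESRP1 at most 1. The 6 fibroblast markers summed to between 15758 and 18587 CPM in 3 libraries and to 488 CPM in rIL-17B replicate 1, in which 5 of the 6 reached 3 counts. Each had at least 2113 counts in the other libraries. In rIL-17B replicate 1 COL3A1 had 3689 counts, COL1A1 2993, LUM 395, DCN 35, COL1A2 16 and PDGFRA 1. Other lists were lower in that library too: endothelial markers summed to 1.03 CPM against 18.7 to 30.5 in the other 3, neural and glial markers to 48.8 against 237 to 492, pan-leukocyte markers to 0.137 against 7.18 to 9.37, and T and B cell markers to 0.0684 against 0.543 to 0.968. The 8 monocyte and macrophage markers summed to 7.29 to 8.77 CPM in all 4, with 5 of the 8 at 0 in rIL-17B replicate 1. CSF1R led this sum, with 62 and 72 counts with PBS and 119 and 108 with rIL-17B. CD14 had 4 counts in rIL-17B replicate 1 against 20 to 23 elsewhere, and ITGAM 0 against 10 to 16. The part of these differences in the results that follow was not tested. In bulk RNA, fewer cells of a type and less RNA per cell cannot be told apart. The values of the 8 genes are therefore given for both rIL-17B libraries separately.

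All 5 receptors and ACT1 were detected in every library. Both ligands were below the limit of detection in rIL-17B replicate 1, IL17B with 0 counts and IL17D with 2. With PBS, IL17RA and IL17RC had the most counts, TRAF3IP2 and IL17RD followed, and IL17RB, IL17RE and IL17D were below 6 CPM (the plot of CPM by library shows all values with their counting intervals). IL17B had 3 and 6 counts in the PBS libraries and 0 and 6 in the rIL-17B libraries, and was too low to be tested. Of the other family members, IL17A, IL17F and IL25 had 0 counts in all 4 libraries, under the limit of 3 counts. IL17C had at most 3 counts and the receptor-like gene IL17REL at most 4.

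**Figure D1:**
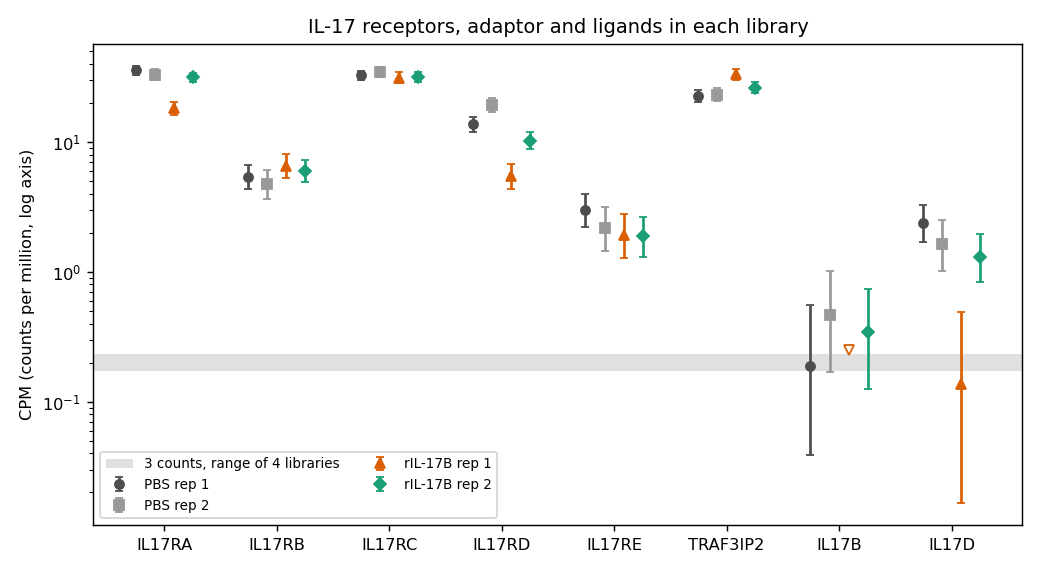
Level of each gene in CPM on a log axis, 1 point per library, with exact 95% Poisson intervals that cover counting error only. The open triangle marks the upper limit for IL17B in rIL-17B replicate 1, where it had 0 counts, and the grey band shows the level of 3 counts, which IL17D in rIL-17B replicate 1 did not reach.

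To compare the levels of different genes, CPM was divided by the length of the exons in kilobases. On this length-scaled level IL17RC ranked first among the 8 genes in all 4 libraries, at 7.42 ± 0.33 CPM per kilobase with PBS and 6.96 ± 0.08 with rIL-17B (mean ± SD, n = 2). With PBS, IL17RA followed at 3.80 ± 0.19 and TRAF3IP2 at 3.50 ± 0.05 CPM per kilobase, and these neighbours changed places when the longest transcript was used as the length. IL17RD at 1.73 ± 0.42 and IL17RB at 1.67 ± 0.16 CPM per kilobase lay within each other's spread, as did IL17D at 0.60 ± 0.16 and IL17RE at 0.56 ± 0.13. IL17B was last at 0.27 ± 0.16 CPM per kilobase. Among the 16093 tested genes with a known length, the PBS level of IL17RC lay above 65.5% and 66.8% of genes, that of IL17RA above 49.8% and 47.3%, that of IL17RB above 32.9% and 29.4%, and that of IL17RE above 16.0% and 11.0%. IL17RC and IL17RA, the chains that together receive IL-17A and IL-17F, were thus the most abundant receptor chains with PBS, and IL17RB, the chain that binds IL-17B, lay in the lower part of the range of expressed genes.

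**Figure D2:**
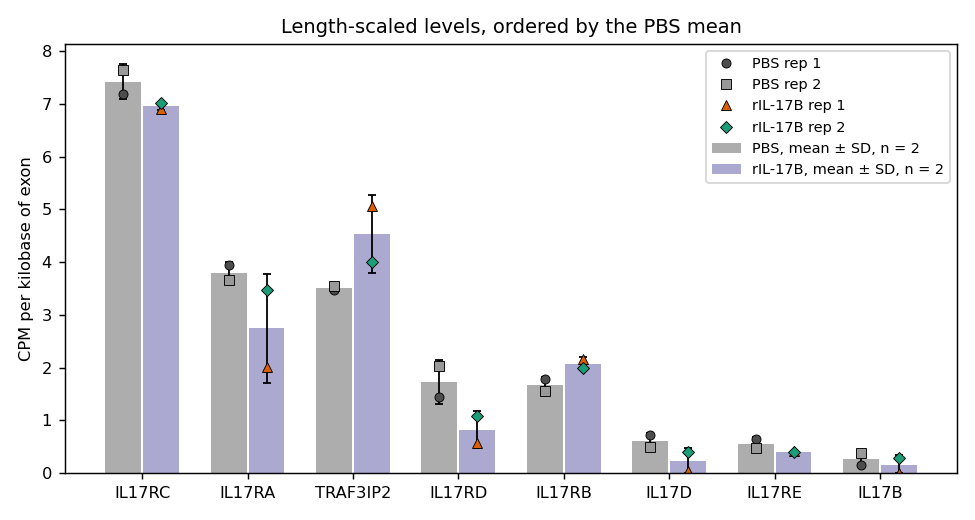
CPM per kilobase of exon for each gene, ordered by the PBS mean; bars show means with SD (n = 2, lower end stopped at 0) and points show the libraries. IL17RC was first in every library, and in absolute CPM per kilobase rIL-17B replicate 1 lay farthest from the PBS mean for IL17RA, TRAF3IP2 and IL17RD, whereas by ratio to PBS, among the 7 tested genes, it lay farthest for IL17D.

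The sequence just upstream of the start site is shown for 3 genes, IL17RB because it is the receptor of the added ligand, and IL17RD and TRAF3IP2 because they had the smallest p-values of the 8 genes in the test below. Each is the 250 bases before the RefSeq start nearest to the annotated 5′ end, from 5′ to 3′ on the gene's own strand (GRCh38.p14), with matches to GGGCGG (the GC box), CCAAT (the CCAAT box), TATAAA (the TATA box) and TGANTCA (the AP-1 site), or to the reverse complement of each, in capitals.
IL17RB, chr3:53846318-53846567, plus strand: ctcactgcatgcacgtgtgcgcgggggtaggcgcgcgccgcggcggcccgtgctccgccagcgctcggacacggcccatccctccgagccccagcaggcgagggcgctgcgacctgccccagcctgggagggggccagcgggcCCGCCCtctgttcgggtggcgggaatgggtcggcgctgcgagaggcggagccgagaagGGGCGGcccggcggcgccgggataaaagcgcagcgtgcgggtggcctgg
IL17RD, chr3:57170318-57170567, minus strand: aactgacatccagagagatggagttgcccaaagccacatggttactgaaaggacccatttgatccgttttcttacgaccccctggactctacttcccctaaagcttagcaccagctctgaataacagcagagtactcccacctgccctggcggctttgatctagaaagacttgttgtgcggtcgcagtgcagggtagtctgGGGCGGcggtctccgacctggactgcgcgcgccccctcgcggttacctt
TRAF3IP2, chr6:111605879-111606128, minus strand: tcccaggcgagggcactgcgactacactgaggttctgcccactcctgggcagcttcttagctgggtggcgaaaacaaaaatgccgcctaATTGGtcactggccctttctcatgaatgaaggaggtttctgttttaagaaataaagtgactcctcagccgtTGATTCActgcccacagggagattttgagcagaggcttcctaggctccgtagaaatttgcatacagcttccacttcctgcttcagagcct
The IL17RB window held 2 GC boxes and 77.6% G and C, against a median of 58% over 35114 promoter windows of the same length. IL17RD held 1 GC box at 56% G and C. TRAF3IP2 held 1 CCAAT box and 1 AP-1 site at 50.8% G and C, and its RefSeq start lay 400 bases from the 5′ end in GENCODE. Of all promoter windows, 42.6% held a GC box, 32.0% a CCAAT box, 10.7% a TATA box and 6.57% an AP-1 site. A match is only a run of letters, and binding of any factor was not measured here.

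Whether rIL-17B altered its own receptor was asked first. IL17RB (ENSG00000056736.9, chromosome 3, 53846580 to 53865800, plus strand, GENCODE 29 on GRCh38) had 86 and 61 counts with PBS, 5.41 and 4.73 CPM. With rIL-17B it had 96 and 106 counts, 6.57 and 6.04 CPM in replicates 1 and 2. Both rIL-17B libraries lay above both PBS libraries, and the mean was 5.07 ± 0.48 CPM over the PBS libraries against 6.30 ± 0.38 CPM over the rIL-17B libraries (SD, n = 2). The ratio to the summed PBS counts was 1.29 in replicate 1 (95% interval 0.98 to 1.68) and 1.18 in replicate 2 (0.91 to 1.53), intervals from an exact binomial method that cover counting error only. The log2 fold change was 0.24 (standard error, SE, 0.24, adjusted p = 0.68 by the quasi-likelihood test of edgeR, with Benjamini-Hochberg adjustment over all genes). A difference in IL17RB was thus not detected with 2 libraries per group at this depth. Without replicate 1 the log2 fold change was likewise 0.24 (adjusted p = 0.76 in edgeR), and without replicate 2 it was 0.23 (adjusted p = 0.469 in edgeR). The 3 genes whose levels followed IL17RB most closely over the 4 libraries, among 13542 genes with at least 10 counts in each, were CHEK2, ZNF18 and ARMT1. Their log2 level relative to their own mean differed from that of IL17RB by at most 0.02, 0.02 and 0.03 in any library. With 4 libraries such a likeness describes these values only.

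IL17RA (ENSG00000177663.13, chromosome 22, 17084954 to 17115694, plus strand), the shared receptor chain, had 566 and 427 counts with PBS, 35.6 and 33.1 CPM. It had 266 and 552 counts with rIL-17B, 18.2 CPM in replicate 1 and 31.4 in replicate 2. Replicate 1 was far below the other 3 libraries, and replicate 2 only just below PBS replicate 2. In replicate 1 IL17RA was 1.89-fold lower than in the summed PBS libraries (95% interval 1.65 to 2.18), and in replicate 2 it was 1.10-fold lower (0.99 to 1.22). The log2 fold change was -0.52 (SE 0.36, adjusted p = 0.661 in edgeR). The difference rested on replicate 1: without it the log2 fold change was -0.13 (adjusted p = 0.712 in edgeR), and without replicate 2 it was -1.06 (adjusted p = 2.72e-13 in edgeR), where 31.9% of all genes were called lower. On the length-scaled level, the ratio of IL17RB to IL17RA was 0.452 and 0.425 with PBS, and with rIL-17B it was 1.07 for replicate 1 and 0.571 for replicate 2, a description made after the values had been seen.

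IL17RC (ENSG00000163702.19, chromosome 3, 9917074 to 9933630, plus strand), the partner of IL17RA for IL-17A and IL-17F, had nearly the same level in all libraries. It had 519 and 448 counts with PBS, 32.6 and 34.8 CPM, and 458 and 559 counts with rIL-17B, 31.3 and 31.8 CPM. The rIL-17B libraries lay just below the PBS libraries, with ratios to PBS of 0.93 (95% interval 0.83 to 1.04) and 0.95 (0.85 to 1.05). The log2 fold change was -0.16 (SE 0.12, adjusted p = 0.661 in edgeR). The gap between the rIL-17B replicates was 0.02 on the log2 scale, and only 3.09% of tested genes had a smaller one. IL17RE had a like gap of 0.02, with 2.92% of tested genes smaller. Between the PBS replicates the gap of IL17RC was 0.09, and 39.1% of tested genes had a smaller one.

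IL17RD (ENSG00000144730.17, chromosome 3, 57089982 to 57170306, minus strand), also known as SEF and known as an inhibitor of fibroblast growth factor signaling, was lower in both rIL-17B libraries. It had 218 and 250 counts with PBS, 13.7 and 19.4 CPM, and 80 and 180 counts with rIL-17B, 5.47 and 10.3 CPM. The rIL-17B libraries lay lowest, replicate 1 below replicate 2, and the PBS libraries lay apart from each other. Relative to the summed PBS libraries IL17RD was 2.97-fold lower in replicate 1 (95% interval 2.34 to 3.81) and 1.59-fold lower in replicate 2 (1.33 to 1.89). The PBS libraries themselves differed by 1.42-fold (1.18 to 1.70), which is more than counting error and, at 0.49 on the log2 scale, a wider gap than 91.1% of tested genes had. Over both groups the log2 fold change was -1.12 (SE 0.46, adjusted p = 0.661 in edgeR), and the threshold of 0.05 was not passed. IL17RD was the only one of the 8 genes that passed it when either rIL-17B library was left out. Without replicate 1 the log2 fold change was -0.68 (adjusted p = 0.00807 in edgeR), in a fit that called 2.3% of 17103 genes lower. Without replicate 2 it was -1.72 (adjusted p = 1.42e-15 in edgeR), where 31.9% of 17223 genes were called lower. In these fits the single rIL-17B library is assumed to vary like the PBS pair, which for IL17RD already differed. The test therefore compares that library with PBS, not the conditions.

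IL17RE (ENSG00000163701.18, chromosome 3, 9902612 to 9916402, plus strand), the IL-17C receptor chain, was low throughout. It had 48 and 28 counts with PBS, 3.02 and 2.17 CPM, and 28 and 33 counts with rIL-17B, 1.92 and 1.88 CPM. PBS replicate 2 lay close to the rIL-17B libraries. The ratios to PBS were 0.73 (95% interval 0.45 to 1.13) and 0.71 (0.46 to 1.08) in rIL-17B replicates 1 and 2, and the log2 fold change was -0.52 (SE 0.34, adjusted p = 0.661 in edgeR).

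TRAF3IP2 (ENSG00000056972.18, chromosome 6, 111556454 to 111606278, minus strand), the gene of the ACT1 adaptor, was higher in both rIL-17B libraries. It had 361 and 299 counts with PBS, 22.7 and 23.2 CPM, and 485 and 461 counts with rIL-17B, 33.2 and 26.3 CPM. The PBS libraries were nearly equal, and both rIL-17B libraries lay above them, replicate 1 further than replicate 2. The ratio to PBS was 1.45 in replicate 1 (95% interval 1.28 to 1.63) and 1.15 in replicate 2 (1.01 to 1.29). The log2 fold change was 0.30 (SE 0.14, adjusted p = 0.661 in edgeR). Without replicate 1 it was 0.19 (adjusted p = 0.586 in edgeR), and without replicate 2 it was 0.40 (adjusted p = 0.00675 in edgeR), where 23.2% of all genes were called higher.

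Of the ligands, IL17D (ENSG00000172458.4, chromosome 13, 20702127 to 20723098, plus strand) had 38 and 21 counts with PBS, 2.39 and 1.63 CPM, and 2 and 23 counts with rIL-17B, 0.137 and 1.31 CPM. In rIL-17B replicate 1 it was under the limit of 3 counts. There it was 15.0-fold lower than in PBS, with a 95% interval of 3.97 to 127 because it rests on 2 counts, and in replicate 2 it was 1.56-fold lower (0.95 to 2.65). The log2 fold change was -1.47 (SE 1.11, adjusted p = 0.661 in edgeR), -0.63 without replicate 1 (adjusted p = 0.637 in edgeR) and -3.94 without replicate 2 (adjusted p = 7.88e-06 in edgeR), the last again resting on 2 counts. IL17B (ENSG00000127743.5, chromosome 5, 149371324 to 149404202, minus strand), the gene of the ligand that was added as protein, had 0.189 and 0.466 CPM in the PBS libraries and 0 and 0.342 in the rIL-17B libraries. Its groups overlapped, and no fold change is given because its values lie near the limit of detection.

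Between rIL-17B and PBS the threshold of 0.05 on the adjusted p was passed by 0 of the 7 genes tested and by 0 of all 16361 genes (0%), both in edgeR and in DESeq2. Before adjustment, p was under 0.05 for 226 genes in edgeR (1.38%) and for 457 in DESeq2, with 0 of the 7 in edgeR and IL17RD alone in DESeq2 (unadjusted p = 0.0447, adjusted p = 0.847). In edgeR the unadjusted p of IL17RD was under 0.05 once replicates were blocked by number (0.0301, adjusted p = 0.675). The same held with no filter on low counts (0.0287, adjusted p = 0.772). Of all genes, 173 of 16361 and 879 of 31907 were under 0.05 in these fits. In edgeR the unadjusted p of IL17RD was above 0.05 in the main fit (0.076) and with upper-quartile normalization (0.0691). It was also above 0.05 without TMM scaling (0.0651) and with a minimum of 10 counts per library (0.0514). The groups did not overlap for any of the 7. IL17RB and TRAF3IP2 were higher in both rIL-17B libraries, where 31.5% of all genes were. IL17RA, IL17RC, IL17RD, IL17RE and IL17D were lower in both, where 27.5% of all genes were. IL17D was tested only because its PBS libraries and rIL-17B replicate 2 exceeded the filter on low counts. In rIL-17B replicate 1, 2 of the 7 genes were at least 2-fold below the PBS mean (0.5 CPM added to each value) against 18.6% of all tested genes, and 0 were 2-fold above against 2.61%. In replicate 2, 0 were 2-fold below against 0.575% and 0 above against 0.0611%. In replicate 1 the median log2 ratio of all tested genes was 0.08 on the plain CPM scale and -0.04 after TMM scaling, and on the TMM scale 2 of the 7 genes were again higher in both rIL-17B libraries, against 28.6% of all genes, and 5 lower, against 30.3%.

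Counts of overlapping genes are uncertain because the use of strand in counting is not given. The exons of IL17D shared 39.0% of their length with the antisense gene AL161772.1, which had between 0 and 10 counts. IL17RB shared 3.26% with AC012467.2, which had between 46 and 74 counts. TRAF3IP2 shared 1.88% with Z97989.1 and no exon bases with TRAF3IP2-AS1, which had between 26 and 45 counts. IL17B shared 10.7% with AC131025.1, which had 0. The exons of IL17RA, IL17RC, IL17RD and IL17RE overlapped no exon of another gene.

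Downstream of the receptors, a list of 51 genes of the IL-17 signaling pathway was read from the same fit, and 49 were tested. In edgeR 0 of them passed the threshold in either direction and 0 had an unadjusted p under 0.05; 18 had a positive and 31 a negative log2 fold change, with a median of -0.12 against -0.03 over all genes. The 5 with the smallest p (adjusted p = 0.661 for each in edgeR) differed by less than 2-fold in either rIL-17B library. CHUK, which encodes IKKα, had 45.2 and 43.1 CPM in the PBS libraries and 62.9 and 50.8 in the rIL-17B libraries (log2 fold change 0.29, SE 0.12). SRSF1, a splicing factor that binds ACT1, was at 165 CPM in both PBS libraries, 259 in rIL-17B replicate 1 and 185 in replicate 2 (log2 fold change 0.35, SE 0.16). TRAF2, an ACT1 partner in mRNA stabilization, had 42.1 and 43.1 CPM in the PBS libraries and 76.2 and 48.1 in the rIL-17B libraries (log2 fold change 0.46, SE 0.22). For these 3 genes replicate 1 lay further above PBS than replicate 2. TRAF4 (log2 fold change -0.21) had 86.7 and 96.8 CPM in the PBS libraries and 87.0 and 80.1 in the rIL-17B libraries. NFKB1 (log2 fold change -0.23), an NF-κB subunit gene, had 31.8 and 33.6 CPM, then 29.7 and 28.9. TRAF6, the ubiquitin ligase recruited by ACT1, had 240 and 189 counts with PBS and 196 and 262 with rIL-17B (log2 fold change -0.14).

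A second list held 32 genes known to be induced by IL-17 cytokines, of which 21 were tested and 0 passed the threshold in edgeR, with 0 at an unadjusted p under 0.05. The list was written for IL-17 cytokines in general, not for IL-17B in particular. All 21 had a negative log2 fold change, with a median of -1.12 against -0.03 over all genes. The shift was unequal between libraries: replicate 1 of rIL-17B had a median log2 ratio to the PBS mean of -2.74, and replicate 2 one of -0.21. In replicate 1, 19 of the 21 were at least 2-fold below PBS, against 18.6% of all tested genes, and in replicate 2 none was. CXCL1, CXCL5, CXCL6, CCL20, S100A9 and MMP1 had 0 counts in replicate 1. They were tested only because the other libraries exceeded the filter on low counts. That they lay below PBS in replicate 1 was therefore fixed by the filter. The 5 with the smallest p were the mucin gene MUC5B, the AP-1 subunit gene FOSL1, the cyclooxygenase gene PTGS2, the NF-κB cofactor gene NFKBIZ and the chemokine gene CCL2. MUC5B had 2.64 and 2.95 CPM in the PBS libraries and 0.753 and 1.88 in the rIL-17B libraries (log2 fold change -1.12, SE 0.60, adjusted p = 0.661 in edgeR). NFKBIZ had 50.1 and 44.8 CPM in the PBS libraries and 12.4 and 40.9 in the rIL-17B libraries (log2 fold change -0.87, SE 0.68, adjusted p = 0.661 in edgeR). The fibroblast markers moved with this list, at 488 CPM in replicate 1 against 15758 to 18587 CPM elsewhere, as did the endothelial, neural and glial, pan-leukocyte, and T and B cell markers given above. The summed epithelial markers, led by KRT8, were highest in replicate 1, but KRT19 went the other way, with 1 count there. The part of these markers in the shift of the list was not tested.

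**Figure D3:**
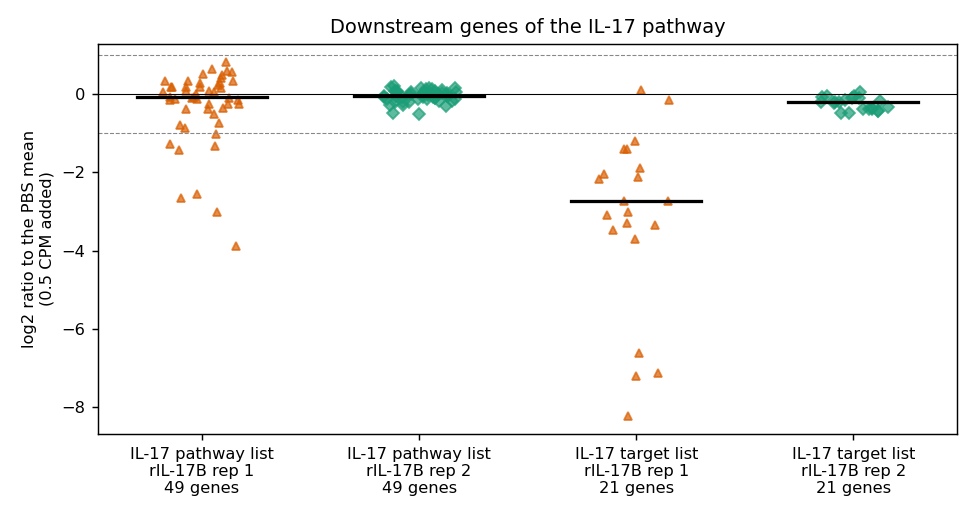
Log2 ratio to the PBS mean (0.5 CPM added) of each tested gene of the IL-17 pathway list (49 genes) and the IL-17 target list (21 genes) in rIL-17B replicates 1 and 2; black bars are medians and dashed lines mark 2-fold. The medians were -0.08 and -0.05 for the pathway list and -2.74 and -0.21 for the target list.

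Without rIL-17B replicate 1, the comparison called 504 of 17103 genes, 2.3% lower and 0.643% higher. Among them were 1 gene of the pathway list and 4 of the target list, all lower, which are named here after their values were seen: the AP-1 subunit JUN (log2 fold change -0.50, adjusted p = 9.86e-05 in edgeR) and the neutrophil chemokines CXCL1, CXCL5, CXCL6 and CXCL8. CXCL8 had 2792 and 2128 counts with PBS, and with rIL-17B it had 1 count in replicate 1 and 2205 in the other; the log2 fold change was -0.44 without replicate 1 (adjusted p = 0.000124 in edgeR). CXCL1, CXCL5 and CXCL6 were at 0 in replicate 1 and had log2 fold changes between -0.42 and -0.37 without it. IL17RD and these 5 genes were picked out because that fit called them lower. Lying below PBS in replicate 2 was therefore fixed by the choice. They lay below PBS in replicate 1 as well. The 27.5% of all tested genes that were lower in both rIL-17B libraries is a share of unselected genes, so it is no measure for them. The picked genes were lower by less in replicate 2 than in replicate 1. The log2 ratios to the PBS mean in replicates 1 and 2 were -8.23 and -0.44 for CXCL8, and -1.51 and -0.67 for IL17RD. For IL17RD the PBS libraries themselves differed by 1.42-fold.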

How the data were processed

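RNA-seq data of 4 HGC-27 libraries (2 PBS, 2 rIL-17B) were used. The values deposited by the authors are raw read counts per gene name, and genes at 0 are not listed. Libraries were made by Smart-seq2, which primes on poly(A) and amplifies by PCR, and the protocol mentions monocytes where the other labels give HGC-27. The submitters' processing notes name hg38, HISAT2 2.1.0, Bowtie2 2.2.3, TopHat2 and HTSeq 0.6.0, without roles or options. The annotation and strand setting are not given in the sources used here.

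Repeated names with equal counts (83 to 98 per library) were kept once and 22 to 25 date-like entries per library were left out, which left between 12888029 and 17555879 counts. Lengths, coordinates and overlaps came from GENCODE 29 (97.8% of names found once) and promoter sequences, present for 7 of the 8 genes and not for IL17RA, from RefSeq (GRCh38.p14). CPM used plain library totals. The test was that of edgeR 4.0.16, run in R 4.3.3 (filterByExpr, TMM, quasi-likelihood F test, Benjamini-Hochberg over 16361 genes, threshold 0.05), and the standard error is the absolute log2 fold change divided by the square root of F. On counts simulated for this comparison with 4-fold changes, the test recovered 194 of 199 changed genes with the spread of the PBS pair (16033 genes run) and 0 of 196 with the spread within both groups (15863 genes run). Each setting gave all libraries the same spread, whereas in the data rIL-17B replicate 1 stood apart from the rest. Neither rate therefore tells how many real changes the test would find here. For 2 against 2 libraries the smallest two-sided p of an exact permutation test is 0.333. Intervals are exact at 95% and cover counting error only. The libraries were amplified by PCR, and whether PCR copies were removed before counting is not given.

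Named genes were the 8 genes, genes overlapping their exons, other IL-17 family genes, TRAF6, the 5 genes with the smallest p in each list and the 3 most like IL17RB. The genes and lists were written from general knowledge with earlier results of these data known. DESeq2 1.42.0, other normalizations and filters, a replicate block and leaving out each library were the alternatives. The protein sequences were not analysed here.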

Additional observations from a re-analysis of the deposited data

How the results depend on the processing

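The count of 0 genes past the threshold, over all genes, the 8 genes and both lists, was the same with DESeq2, upper-quartile normalization, no TMM scaling, every listed gene kept, a minimum of 10 counts per library and an adjusted p under 0.1. It was also 0 with the replicate number as a block, where 173 genes had an unadjusted p under 0.05 against 226 without it. Unadjusted p under 0.05 was met by 457 genes with DESeq2, 879 with every listed gene kept, 462 with the minimum of 10 counts, 2 without either PBS library, 2344 without rIL-17B replicate 1 and 10134 without rIL-17B replicate 2. Same-numbered libraries deviated together with a correlation of 0.08 across genes, and nothing in the labels pairs them. Leaving out each library in turn gave between 0 and 9489 genes, between 0 and 4 of the 8 genes and between 0 and 51 list genes past the threshold. It was 0 without either PBS library. Without rIL-17B replicate 1 there were 504 genes, IL17RD among them, and 5 list genes. Without rIL-17B replicate 2 there were 9489 genes, with IL17RA, IL17RD, IL17D and TRAF3IP2, and 51 list genes. These fits leave 1 library in a group. Of all genes tested without rIL-17B replicate 1, 2.3% were called lower and 0.643% higher. Without rIL-17B replicate 2 these shares were 31.9% and 23.2%. With so many genes called, the calls of IL17RA, IL17RD, IL17D and TRAF3IP2, from 7 tested genes, say nothing particular about this family. No log2 fold change of the 7 tested genes changed sign under any alternative. It ranged from 0.14 to 0.35 for IL17RB, from -1.72 to -0.68 for IL17RD, from -1.06 to -0.13 for IL17RA and from 0.19 to 0.40 for TRAF3IP2. At 10 counts per library 6 of the 8 genes were detected throughout, as at 3 counts, and at 1 count 7 were. The length used changed 8 of 32 ranks of the length-scaled level, and IL17RC stayed first. With no value added before the ratio, 677 genes were 2-fold above PBS in rIL-17B replicate 1, against 427 with 0.5 CPM added. With no value added, 88 genes were 2-fold above and 340 below PBS in rIL-17B replicate 2, with 1 CPM added 1 and 25, and with 0.5 CPM added 10 and 94; the counts among the 7 tested genes did not move. IL17B, not tested, was at 0 in rIL-17B replicate 1 and so below PBS by any fold with no value added, against a log2 ratio of -0.73 with 0.5 CPM added. The side on which both rIL-17B libraries lay was compared on TMM-scaled CPM after the data had been seen. Depth limits IL17B and IL17D most.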

Other observations

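Within the pathway list, 8 genes were at least 2-fold below the PBS mean in rIL-17B replicate 1 and none in replicate 2. That is 8 of the 49 tested, where 18.6% of all tested genes were as far below, so the count says nothing particular about the list, and the genes are named only as values, after these were seen. They were the adaptors TRAF1 and TRAF5, the NF-κB subunit RELB, the NF-κB inhibitor TNFAIP3, and the transcription factors JUN, FOS, CEBPB and CEBPD. TRAF5, which takes part in IL-17-induced mRNA stabilization, had 593 and 507 counts with PBS, 90 in rIL-17B replicate 1 and 648 in replicate 2. Its log2 ratio to the PBS mean was -2.54 in replicate 1 and -0.05 in replicate 2. RELB had 144 and 118 counts in the PBS libraries and 10 and 112 in the rIL-17B libraries. RELA, the partner of NFKB1, had 1309 and 1073 counts in the PBS libraries and 1253 and 1402 in the rIL-17B libraries (log2 fold change -0.07). Of the target list, STEAP4 and BCL3 were the 2 tested genes that were not 2-fold below PBS in replicate 1. STEAP4 had 305 and 324 counts in the PBS libraries and 351 and 374 in the rIL-17B libraries.

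Of all promoter windows 42.6% held a GC box, and the upstream windows of the ligand genes, IL17RE and TRAF3IP2 held none. That of IL17B held 2 matches to TGANTCA, at positions -248 and -101 from the RefSeq start, against 6.57% of promoter windows with at least 1, and that of IL17D held 1 CCAAT box at position -72 from a start 965 bases away from the 5′ end in GENCODE.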
